A study of Mus musculus with 6 samples.

Results

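The early activation genes described here were Egr1, Egr2 and Egr3, Nab1 and Nab2, Nr4a1, Nr4a2 and Nr4a3, and Ier2 and Ier3. They were chosen by gene symbol, as every probe set that the platform annotation assigns to one of the 10 names. This gave 14 probe sets of the 22626 that are not controls, or 10 genes of 12393. All 10 genes were among the 9295 tested after the dimmest 25% of genes had been left out.

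The cells were CD4 T cells of C57BL/6 mice, taken from spleen and lymph nodes with CD4 magnetic beads. For 3 days they were stimulated through CD3 and CD28 by antibodies, each given at 1 µg/mL, with IL-2 (20 U/mL) in the medium. The 3 arrays of the miR-155 KO group came from mice that lack the microRNA miR-155. The 3 arrays of the WT group came from wild-type mice. Each array was taken to hold cells of 1 mouse, though the sex-linked transcripts of the replicate 3 arrays, given below, go against this. Culture, strain and cell source were the same in both groups, and unstimulated cells were not analysed here. The labels give neither the age of the mice nor the part of the locus that was deleted.

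Egr1, Egr2 and Egr3 encode zinc finger transcription factors that are switched on within minutes to hours of T cell receptor stimulation through the MAP kinase and calcium-NFAT pathways. The NAB proteins bind EGR factors and hold back their activity, and Nab2 is itself a known EGR target, so the genes form a feedback loop. Nr4a1 (Nur77), Nr4a2 and Nr4a3 encode orphan nuclear receptors that are induced by the same signals and serve as readouts of receptor signal strength. Egr2, Egr3 and the Nr4a receptors are known for restraining T cells that have been stimulated without full costimulation. Ier2 and Ier3 are further early response genes, and Ier3 is a known target of NF-kappa B that affects cell survival.

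Promoter sequence from RefSeq (GRCm38.p6, the 250 bases before a transcription start and the 50 bases after it) was at hand for 7 of the 10 genes. The stretches below are shown for Ier3, Nr4a1 and Nab1, which had the smallest limma p of the 10 in the comparison of KO with WT. Egr2 is shown because some of its 5 windows held a motif of SRF, the factor through which MAP kinases act on early genes. Egr1, Egr3 and Ier2 were not among the 7, so no matches are given for them. All run 5′ to 3′ on the strand of the gene. In Ier3, at chr17:35821463-35821712 on the plus strand, capitals mark a match to the NF-kappa B site.
Ier3: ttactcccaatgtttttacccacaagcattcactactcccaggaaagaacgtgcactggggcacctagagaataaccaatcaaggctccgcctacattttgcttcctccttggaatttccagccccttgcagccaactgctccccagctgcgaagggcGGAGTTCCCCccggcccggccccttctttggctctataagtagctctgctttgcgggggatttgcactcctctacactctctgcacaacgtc
In Nr4a1, at chr15:101266596-101266845 on the plus strand, capitals mark 4 copies of TGCGTCA, a motif chosen after the sequence was seen.
Nr4a1: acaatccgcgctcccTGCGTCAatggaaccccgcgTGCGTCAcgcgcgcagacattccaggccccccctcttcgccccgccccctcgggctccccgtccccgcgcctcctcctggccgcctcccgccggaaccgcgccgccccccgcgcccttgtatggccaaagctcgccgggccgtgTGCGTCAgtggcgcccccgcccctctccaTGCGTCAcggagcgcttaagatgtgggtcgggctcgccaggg
In Nab1, at chr1:52500449-52500698 on the minus strand, capitals mark 3 matches to GCGNGGGCG, the motif of the EGR factors.
Nab1: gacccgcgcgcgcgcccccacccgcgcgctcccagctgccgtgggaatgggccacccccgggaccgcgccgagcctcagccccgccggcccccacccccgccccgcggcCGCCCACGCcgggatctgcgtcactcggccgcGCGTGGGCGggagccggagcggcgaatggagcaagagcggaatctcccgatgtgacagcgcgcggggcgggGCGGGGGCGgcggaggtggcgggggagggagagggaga
Another Egr2 window held a different match to the CArG box, CCTTTTTTGG, which is not shown. In Egr2, at chr10:67537787-67537816 on the plus strand, capitals mark a CArG box, the motif of SRF.
Egr2: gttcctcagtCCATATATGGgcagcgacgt

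These motifs were searched on both strands over the 300 bases of all 32851 promoter windows. The NF-kappa B site was in 4.51% of them, TGCGTCA in 2.12%, GCGNGGGCG in 5.55% and the CArG box in 1.63%. Among the 7 genes, GCGNGGGCG was also in the windows of Nr4a1 and Nr4a2, TGCGTCA also in that of Nab1, and the NF-kappa B site also in those of Nab1 and Nr4a1. None of the 7 held AAAGGTCA, the monomer site of the NR4A receptors (1.51% of all windows), or TGACGTCA, the full cyclic AMP response element (1.79%). A match describes the letters only and shows no binding.

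Over the 9295 genes 0 passed limma at an adjusted p under 0.05, and the smallest adjusted p was 0.545. The targeted locus followed the labels, with Mir155hg between 3.51 and 4.45 on the KO arrays and between 6.59 and 8.21 on the WT arrays (log2). Sex-linked transcripts followed the replicate number in both genotypes. Xist was at 13.1 and 13.4 with the Y-linked Eif2s3y at 3.44 and 3.50 on the replicate 1 arrays, and Xist at 5.66 and 5.94 with Eif2s3y at 10.4 and 10.5 on the replicate 2 arrays. Both replicate 3 arrays carried Xist (12.6 on each) together with Eif2s3y (10.05 and 10.21), which goes against 1 mouse per array for them. The T cell marker Cd4 measured between 8.83 and 9.25 over the 6 arrays and Cd3d between 12.8 and 13.4. Of the CD8 markers, Cd8a was between 5.69 and 6.10 and Cd8b1 between 7.23 and 7.73.

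In the absence of miR-155 the 10 genes lay on both sides of their WT levels. Of the 10 genes, 6 were higher and 4 lower in KO, against 49.2% of all genes higher, and their median log2 difference was 0.078, against -0.0036 over all genes tested. Ier3 was 1.74-fold higher in KO, the largest difference among the 10, and Nr4a1 was 1.21-fold lower. These were the genes without overlap between genotypes, 2 of 10, against 12.8% of all genes. By limma 0 of the 10 had an adjusted p under 0.05, as for all genes (0%), and 1, Ier3, had an unadjusted p under 0.05, against 7.43% of all genes. Of the 14 probe sets 8 were higher (50.4% of all probe sets), 3 did not overlap (11.7%), 1 had an unadjusted limma p under 0.05 (6.55%) and 0 an adjusted one.

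**Figure D1:**
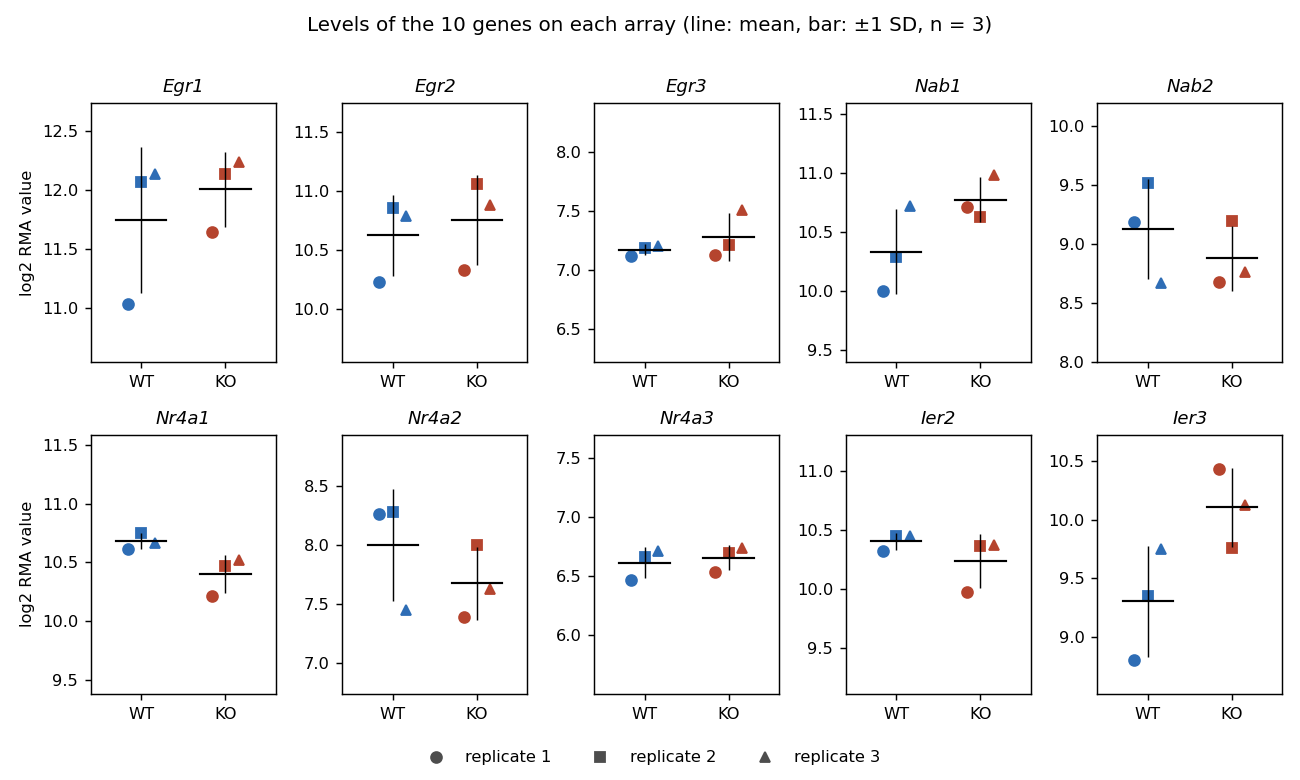
Log2 RMA value of each of the 10 genes (vertical axis, each panel spanning the same range) on the WT arrays (blue) and the KO arrays (red), with marker shape for the replicate number, a line at the mean and a bar of 1 SD either side (n = 3). The KO arrays lie above all WT arrays for Ier3 and below them for Nr4a1, and overlap with them for the other 8 genes.

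Among the Egr factors, Egr1 measured 11.64, 12.14 and 12.24 on KO replicates 1, 2 and 3 and 11.03, 12.06 and 12.14 on WT replicates 1, 2 and 3 (log2 RMA values, here and below). Both replicate 1 arrays were the lowest of their genotype, and the groups overlapped. The difference was 0.26 ± 0.33 (SE, n = 3 per group), with a 95% interval from -0.52 to 1.05 (limma adjusted p = 0.786). It was -0.094 without WT replicate 1, so its direction rested on that array, 0.15 without KO replicate 3 and up to 0.46 without another array.

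Egr2 measured 10.33, 11.06 and 10.89 in KO and 10.23, 10.86 and 10.79 in WT at the brighter of its 2 probe sets. Here too the replicate 1 arrays were low in both genotypes, and the distance between replicates exceeded the distance between genotypes. The difference was 0.13 ± 0.25 (SE; interval -0.47 to 0.73, limma adjusted p = 0.859), and 0.20 ± 0.23 at the other probe set. It turned to -0.064 without WT replicate 1 and to -0.019 without KO replicate 2, and was 0.35 without KO replicate 1.

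Egr3 measured 7.13, 7.21 and 7.52 in KO and 7.12, 7.19 and 7.21 in WT. Replicates 1 and 2 were nearly level between genotypes and KO replicate 3 was alone above the rest. The difference was 0.11 ± 0.14 (SE; interval -0.21 to 0.44, limma adjusted p = 0.780), -0.0037 without KO replicate 3 and 0.19 without KO replicate 1.

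The corepressor genes of the EGR factors differed in opposite directions. Nab1 measured 10.71, 10.62 and 10.98 in KO and 9.997, 10.28 and 10.71 in WT. WT replicate 3 reached into the KO range, and the other WT arrays lay below it. The difference was 0.44 ± 0.21 (SE), or 1.36-fold, with an interval from -0.060 to 0.94 (limma adjusted p = 0.631, unadjusted p = 0.0754). It was 0.27 without WT replicate 1 and 0.63 without WT replicate 3. The second Nab1 probe set, with 9.42, 9.18 and 9.55 in KO and 8.61, 8.93 and 9.27 in WT, gave 0.45 ± 0.19 (SE), so both probe sets of the gene had the same direction and size.

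Nab2 measured 8.68, 9.19 and 8.76 in KO and 9.19, 9.52 and 8.67 in WT. Its lowest WT array was replicate 3, not replicate 1, and the groups overlapped. The difference was -0.25 ± 0.25 (SE; interval -0.84 to 0.35, limma adjusted p = 0.735). It was -0.050 without WT replicate 2, -0.15 without KO replicate 1, -0.40 without KO replicate 2 and -0.47 without WT replicate 3.

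Of the orphan receptor genes, Nr4a1 had the most even WT values, at 10.62, 10.75 and 10.67 on replicates 1, 2 and 3. The KO arrays measured 10.22, 10.47 and 10.52, all of them lower. The KO mean was 10.40 ± 0.16 and the WT mean 10.68 ± 0.067 (SD, n = 3 each), a difference of -0.28 ± 0.13 (SE) with an interval from -0.58 to 0.025. The limma adjusted p was 0.631 (unadjusted p = 0.0665). An exact two-sided permutation test gave 0.1, which no result of 6 arrays in groups of 3 can go below. With 1 array left out the difference lay between -0.33 and -0.18, the smallest being without KO replicate 1, and without both replicate 3 arrays it was -0.34.

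Nr4a2 measured 7.40, 8.01 and 7.63 in KO and 8.26, 8.28 and 7.45 in WT. WT replicate 3 was below 2 of the KO arrays and far from the other WT arrays. The difference was -0.32 ± 0.27 (SE; interval -0.98 to 0.33, limma adjusted p = 0.689). It was -0.60 without WT replicate 3 and shrank to -0.18 without KO replicate 1 or WT replicate 2 and to -0.19 without WT replicate 1. The second Nr4a2 probe set gave -0.19 ± 0.14 (SE).

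The probe sets of Nr4a3 disagreed. The brighter one measured 6.54, 6.70 and 6.74 in KO and 6.46, 6.66 and 6.72 in WT, a difference of 0.045 ± 0.13 (SE; interval -0.25 to 0.34, limma adjusted p = 0.911), and between -0.030 and 0.11 with 1 array left out. The other measured 3.70, 3.87 and 3.82 in KO and 4.03, 4.06 and 3.95 in WT, with every KO array below every WT array and a difference of -0.22 ± 0.096 (SE). That probe set is dim, under the mean of 4.72 at which the filter on genes begins, and RMA values this low carry little information on direction.

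**Figure D2:**
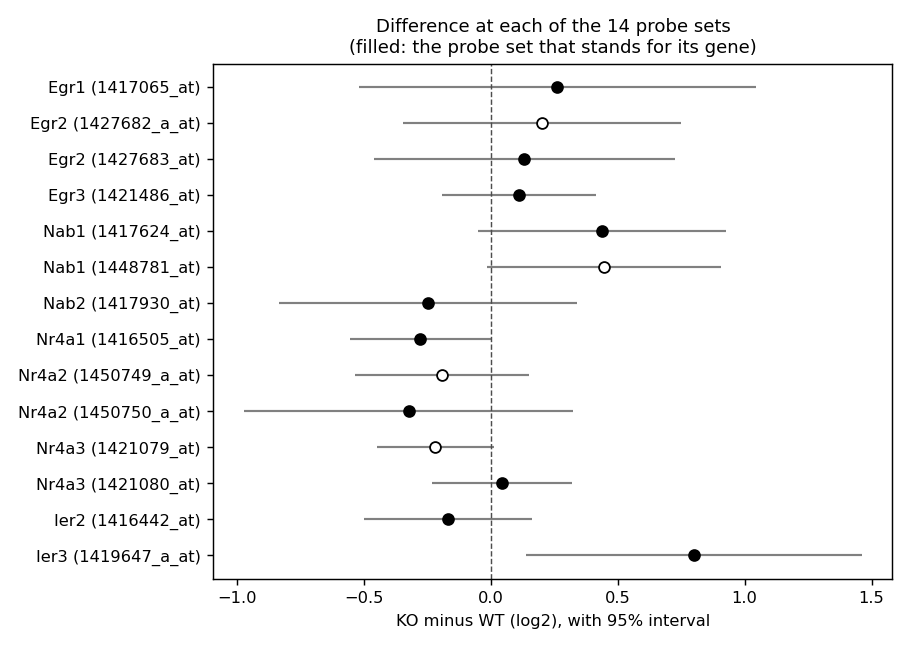
Log2 difference, KO minus WT (horizontal axis), at each of the 14 probe sets, with the 95% interval of the limma fit over all probe sets; filled points are the probe sets that stand for their gene. The interval of Ier3, from 0.14 to 1.46, is the one that leaves out 0, and the probe sets of Nr4a3 lie on opposite sides of it.

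Ier2, whose protein takes part in early transcriptional responses, measured 9.97, 10.36 and 10.37 in KO and 10.32, 10.44 and 10.45 in WT. KO replicate 1 was alone below the others, and without it the difference fell from -0.17 ± 0.15 (SE; interval -0.52 to 0.18, limma adjusted p = 0.696) to -0.036.

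Ier3 measured 10.43, 9.76 and 10.12 on KO replicates 1, 2 and 3 and 8.81, 9.35 and 9.75 on the WT arrays. Every KO array was above every WT array, but KO replicate 2 and WT replicate 3 were only just apart. The KO mean was 10.10 ± 0.34 and the WT mean 9.30 ± 0.47 (SD, n = 3 each). The difference was 0.80 ± 0.28 (SE) with an interval from 0.13 to 1.47 (limma unadjusted p = 0.0256, adjusted p = 0.631), and the exact permutation p was 0.1. It ranked 312 of 9295 genes by p. With 1 array left out it lay between 0.55, without WT replicate 1, and 1.02, without WT replicate 3. Without both replicate 3 arrays it was 1.01.

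Macrophages and B cells also express early response genes, so markers of other cells were read beside these results. The macrophage and monocyte markers, 6 of 7 on the array, had a mean log2 level between 4.90 and 5.21 on the KO arrays and between 4.75 and 5.05 on the WT arrays. Of these, 5 were higher in KO, and Lyz2, Cd14 and Itgam were below the dimmest gene tested. Cd68 measured 7.10, 5.99 and 6.77 in KO and 5.50, 5.82 and 6.64 in WT. This is the same order of arrays within each genotype as in Ier3. Adgre1, at 5.12, 4.75 and 5.10 in KO and 4.45, 4.70 and 4.96 in WT, had it too. Csf1r, at 6.15, 6.13 and 6.54 in KO, did not, nor did the dim Lyz2, Cd14 and Itgam. Of the T cell markers, Cd28 and Cd5 had the order of Ier3, and Cd4, Cd3e, Cd3d, Cd3g, Zbtb7b and Cd2 did not. The part of macrophages and monocytes in the Ier3 difference was not tested. B cell markers had a mean level of 6.12 to 6.60 in KO and 6.03 to 6.73 in WT. Of the 5 on the array, 2 were higher in KO. Among them Ms4a1 measured 6.39, 7.85 and 6.45 in KO and 8.02, 8.22 and 6.55 in WT. Its order of arrays within each genotype was that of Nab2 and Nr4a2. Cd79b, at 7.93, 7.19 and 6.95 in KO and 7.62, 7.23 and 6.76 in WT, did not have that order. Neither did Cd79a, Cd22 or Pax5. The part of B cells in the Nab2 and Nr4a2 differences was not tested. NK cell markers were at 5.62 to 5.86 against 5.40 to 6.11, CD8 T cell markers at 6.56 to 6.92 against 6.56 to 6.75, and dendritic cell markers at 5.15 to 5.41 against 5.05 to 5.30. Platelet markers were at 4.85 to 4.97 against 4.76 to 4.90, erythroid markers at 4.35 to 4.58 against 4.25 to 4.46, and the 4 neutrophil markers, all below the dimmest gene tested, at 3.94 to 3.99 against 3.94 to 3.98. CD4 T cell markers were at 11.2 to 11.4 in KO and 10.8 to 11.3 in WT, 7 of 8 higher in KO, and the lowest array was again WT replicate 1. In bulk samples a different share of cells of a type and a different amount of RNA per cell cannot be told apart.

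Levels varied with the replicate number. Both replicate 1 arrays were the lowest of their genotype in 6 of the 10, namely Egr1, Egr2, Egr3, Nr4a1, Nr4a3 and Ier2, against 16.4% of all genes. These 2 arrays carried Xist and no Y-linked transcript, so sex and any other condition shared by the replicate 1 arrays cannot be told apart there, and their part was not tested.

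Compared within each replicate number, 1 KO array against 1 WT array with matching sex-linked transcripts, 8 of the 10 genes had the same sign in all 3 comparisons, against 44.2% of all genes. Egr1, Egr2, Egr3, Nab1, Nr4a3 and Ier3 were higher in KO in all 3 (19.6% of all genes), and Nr4a1 and Ier2 were lower in all 3 (24.6% of all genes). Ier3 differed by 1.62, 0.41 and 0.37 on replicates 1, 2 and 3, so its distance on the replicate 1 arrays was the widest.

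Nab1 differed by 0.71, 0.34 and 0.27, although its groups overlapped when pooled. With the replicate number as a block its limma unadjusted p was 0.0274, against 0.0754 without it, and its adjusted p 0.478. For Ier3 the limma unadjusted p rose from 0.0256 to 0.0494 with the block. The share of all genes at an unadjusted limma p under 0.05 was 9.88% with the block and 7.43% without it. Nr4a1 differed by -0.40, -0.28 and -0.15. Egr1 differed by 0.61, 0.073 and 0.10, Egr2 by 0.097, 0.20 and 0.097, and Egr3 by 0.0092, 0.019 and 0.31. Several of these values are a few hundredths of a log2 unit, with no replicate of their own to give an error.

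The remaining genes had smaller or mixed differences. Nr4a3 differed by 0.072, 0.041 and 0.022 and Ier2 by -0.35, -0.085 and -0.071. Nab2, at -0.51, -0.33 and 0.095, and Nr4a2, at -0.87, -0.28 and 0.18, were lower in KO on replicates 1 and 2 and higher on replicate 3, the arrays with mixed sex-linked transcripts.

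**Figure D3:**
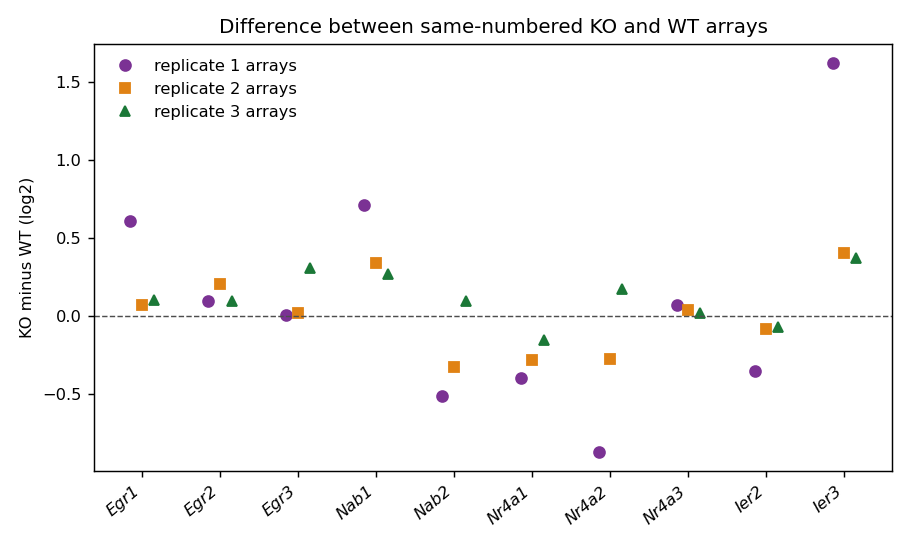
Log2 difference between the KO and the WT array of the same replicate number (vertical axis) for each of the 10 genes, with 1 marker per replicate number. Ier3 and Nab1 are above 0 and Nr4a1 below 0 on all 3, while Nab2 and Nr4a2 cross 0 on replicate 3.

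Ier3 was the only gene of the 10 whose SD over the 6 arrays reached 0.5, the limit for a search of genes with a like profile. Among 1033 such genes the nearest were Lpxn, which encodes the adhesion adaptor leupaxin, and Tent5c, which encodes a poly(A) polymerase. Their centred profiles differed from that of Ier3 by a root mean square of 0.094 and 0.10 log2 units over 6 arrays. Lpxn was 0.88 and Tent5c 0.65 higher in KO on the log2 scale. As in Ier3, KO replicate 1 was the highest and WT replicate 1 the lowest array of both. Both genes were picked for their likeness to Ier3 on these same arrays, so this order and their direction follow from that choice.

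Genes around the same signals were read from 4 lists, in each of which 0 members passed limma at an adjusted p under 0.05. Other early response genes were mostly higher in KO. Of 23 tested, 18 were higher and 5 lower (49.2% of all genes were higher), with a median log2 difference of 0.24. At an unadjusted limma p under 0.05, 4 were higher (3.57% of all genes) and 0 lower (3.86%). The AP-1 subunit gene Jun measured 9.287, 9.075 and 8.9998 in KO and 7.45, 8.37 and 8.35 in WT, a difference of 1.06 ± 0.26 (SE), and 0.72 at its weaker probe set. Ier5, an early response gene related to Ier2, measured 9.89, 9.79 and 10.07 in KO and 9.11, 9.34 and 9.71 in WT, a difference of 0.53 ± 0.18 (SE). Its weaker probe sets differed by 0.17 and 0.0066. In both genes the KO arrays lay above the WT arrays, and WT replicate 1 was the lowest. The list median was 0.11 without WT replicate 1.

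Genes reported as associated with Egr or Nr4a factors in T cells, whether or not as their targets, were spread to both sides. Of 20 tested, 12 were higher and 8 lower (49.2% of all genes were higher), with a median of 0.31, and of 0.087 without KO replicate 1. At an unadjusted limma p under 0.05, 4 were higher (3.57% of all genes) and 1 lower (3.86%). Bcl6, the transcription factor of follicular helper cells, measured 8.55, 8.27 and 8.95 in KO and 5.65, 7.69 and 7.63 in WT, a difference of 1.59 ± 0.55 (SE), of 0.93 without WT replicate 1 and of 0.61 at its weaker probe set. Fasl, which encodes a death ligand and is a known Egr3 target, measured 7.67, 7.12 and 6.58 in KO and 9.01, 8.29 and 8.07 in WT, a difference of -1.33 ± 0.34 (SE). Every KO array was below every WT array for Fasl, and its weaker probe set differed by -0.99.

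The upstream lists had medians close to that of all genes. In the NFAT and calcineurin list, 4 of 10 were higher and 6 lower (49.2% of all genes were higher), with a median of -0.053. It had 0 members at an unadjusted limma p under 0.05 (7.43% of all genes). The calcineurin subunit gene Ppp3cc was at 0.41 ± 0.24 (SE), and 0.13 without WT replicate 1, and Nfatc3 was at 0.23 ± 0.16 (SE), and 0.12 without that array. In the MAPK and SRF list, 6 of 14 were higher and 8 lower, with a median of -0.015. Of these, 3 were higher at an unadjusted limma p under 0.05 (3.57% of all genes) and 0 lower (3.86%). Mef2a and Mef2d, calcium-responsive transcription factors known to bind the Nr4a1 promoter, were at 0.31 ± 0.11 and 0.29 ± 0.11 (SE). Both had all KO arrays above all WT arrays. The weaker probe sets of Mef2a lay between 0.18 and 0.34 and that of Mef2d was at 0.10. Nr4a1 itself was lower in KO, at -0.28.

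**Figure D4:**
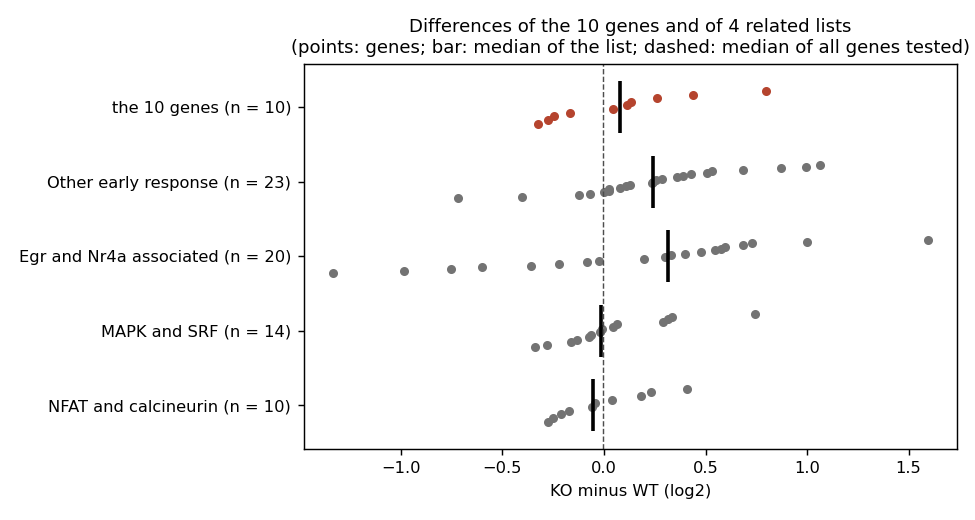
Log2 difference, KO minus WT (horizontal axis), of the 10 genes (red) and of the tested members of 4 related lists (grey), with a bar at each list's median and a dashed line at the median of all genes tested. The 10 genes span -0.32 to 0.80 around a median of 0.078, and the other early response genes have a median of 0.24.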

How the data were processed

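RNA of 6 arrays was measured. The deposited values are log2 expression summaries per probe set. RMA and affy are the tools that the submitters' processing notes name for them, without versions. RMA compresses differences near background, no detection calls were used, and precision is limited by having 6 arrays. A gene was represented by its brightest probe set on average, and the dimmest 25% of genes were dropped. The genotypes were contrasted in limma 3.58.1 under R 4.3.3 (eBayes after lmFit, two-sided, Benjamini-Hochberg adjustment over 9295 genes), with no block. A second fit over all 22626 probe sets gave the errors of the weaker probe sets. The code was tested on simulated data of this comparison over 9295 genes, where limma recovered 0% of 200 genes changed by 0.5 log2 units, 52% of those changed by 1 and 93% of those changed by 2.

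Named were the 10 genes, from each related list the 2 of lowest p (no list had a member past the test), and for each of the 10 with an SD of at least 0.5 the 2 genes with the nearest profile. The 10 genes, the lists and the tests were chosen with earlier results of these data known. Promoter sequences came from RefSeq, build GRCm38.p6. The alternative settings were a replicate block, leaving out each array, median centring, repeated quantile normalization, no filter, a filter at 50%, averaging of probe sets, a mean-variance trend with robust estimation, array weights and an unmoderated test.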

Additional observations from a re-analysis of the deposited data

How the results depend on the processing

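The count of genes past limma's adjusted p was 0 under every alternative but array weights, which gave 3575. The weights were 5.55 for KO replicate 3 and 5.04 for WT replicate 2 and between 0.27 and 0.58 for the other arrays, so that fit mainly compares 2 arrays. With array weights 4711 genes and 6 of the 10 had an unadjusted p under 0.05, and these 6 also passed adjusted: Egr3 (0.29), Nab1 (0.66), Nab2 (-0.63), Nr4a1 (-0.23), Nr4a2 (-0.57) and Ier3 (0.78). Otherwise the unadjusted count, 691, ranged from 276 to 1542 with 1 array left out and was 445 without both replicate 3 arrays, an alternative added after the data were seen. Of the 10 genes, 1 had an unadjusted p under 0.05; 0 to 3 did with 1 array left out, 2 without both replicate 3 arrays and 0 by the plain test. With the replicate number as a block 2 did, Nab1 and Ier3, as did 918 of the 9295 genes (9.88%), and 0 passed the adjusted test. Deviations of same-numbered arrays correlated at -0.042, 0.64 and 0.40 over genes. Arrays of different numbers correlated between -0.69 and 0.39, so the values 0.64 and 0.40 were above all of these and -0.042 was not. The main comparison did not take the numbers to pair the arrays. The values within a replicate number are given because its arrays share their sex-linked transcripts. The labels do not say that arrays of the same number form a pair or a batch.

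Directions turned for Nr4a3 with the mean of its probe sets (-0.086), and with 1 array left out, where Egr1 ranged from -0.094 to 0.46, Egr2 from -0.064 to 0.35 (also -0.019), Egr3 from -0.0037 to 0.19 and Nr4a3 from -0.030 to 0.11. These ranges hold for the gene and for its brighter probe set. Ier3, Nr4a1, Nab1, Nab2, Nr4a2 and Ier2 kept their direction under all alternatives run. The median of the 10 genes lay between -0.079 and 0.15 with 1 array left out. In simulated data no change of 0.5 log2 units was called, and the differences of 9 of the 10 genes were smaller than that. The simulated noise was drawn independently for each array, which leaves out variation that arrays share. It therefore cannot show which differences were detectable for a given gene.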
